A study of Solenopsis invicta with 32 samples.

Results

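In the ovaries of young fire ant queens, 34 of 16314 gene models gave abundant transcripts that were nearly missing from the brains of the same animals. These 34 genes were selected on their measured values, as CPM, a gene's counts scaled to a common library total (counts per 1000000 gene counts). A gene was taken if its median was at least 100 CPM in the ovaries of both treatments and at most 1 CPM in the brains of both treatments. The ratio of its ovary medians, overwintered over spring-reared, also had to lie over 0.5 and under 3, and its coefficient of variation (CV, the SD divided by the mean) in overwintered ovaries had to be under 0.75. The high ovary level, the low brain level, the limited difference between treatments in ovary and the limited spread in overwintered ovaries were therefore set by the selection. They are given here as a description and without support from any test.

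The animals were gynes, or young queens, of Solenopsis invicta from monogyne colonies, which are headed by a lone egg-laying queen. All were SB/SB at the social supergene and were either overwintered or spring-reared. Both organs were taken from each of 16 gynes, 8 per treatment and each from a separate colony, which gave 32 libraries in 4 groups of 8: the brains and the ovaries of each treatment. The libraries were made with Smart-seq2, which amplifies polyadenylated RNA from small inputs, with 1.6 ng of total RNA as input for a brain and 8.0 ng for an ovary. All overwintered gynes carry 1 kind of colony code and all spring-reared gynes another, so colony source and treatment cannot be told apart. The study asked which genes are tied to plasticity in queen weight.

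An insect ovary is a set of tubes, the ovarioles, in which germline stem cells give rise to oocytes. In ants, nurse cells that are sisters of the oocyte load it with RNA and protein, and a layer of somatic follicle cells surrounds it, passes on yolk precursors and lays down the eggshell. Germline genes for RNA storage, meiosis and transposon silencing, and follicle cell genes for the eggshell, are well-known classes of ovary transcripts, though not all such genes are silent in nervous tissue. Which of these classes, if any, the 34 genes belong to is not known here. The identifiers come without names, and a match of all 16314 to the RefSeq gene table found 0, so no gene name, role, position or sequence is given. The genes are called members and numbered 1 to 34 by their median CPM over the 16 ovaries, and 3 are also given by the files' own identifiers. For the same reason the labelled organs could not be checked against marker genes. All 34 members had counts in all 16 ovaries, and no member had counts in all 16 brains.

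Libraries held 9612985 to 23656547 gene counts, so a level of 1 CPM stood for about 10 to 24 counts. On the first principal component of the ovaries, which held 28.1% of the variance over all genes tested, spring-reared ovary 6 scored 9.15, beside the overwintered ovaries at 11.9 to 40.6 and apart from the other spring-reared ovaries at -39.2 to -24.6. Overwintered ovary 1 stood apart on the second component, with a score of 68.9. Overwintered ovary 5 had 13.7% of its counts in its 10 most abundant genes, against 4.96 to 7.67% in the other overwintered ovaries, and a normalisation factor (TMM, from edgeR) of 0.748 where the others had 0.951 to 1.09. Spring-reared brains 4 and 7 stood apart among the brains. In such bulk tissue, fewer cells of a type and less RNA per cell cannot be told apart.

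The members spanned a wide range of ovary levels, with a single gene far above the rest. Their median over the 16 ovaries ran from 5518 CPM for member 1 to 107 CPM for member 34, with 189 CPM at the middle of the list. Only 6 members were over 500 CPM, 8 lay between 200 and 500 CPM and 20 were under 200 CPM. The lowest value of any member in any ovary was 51.6 CPM, and the lowest count was 590, so no ovary value rested on a handful of reads. CPM is not corrected for transcript length, which was not available, so this order is one of shares of reads and not of transcript numbers.

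Member 1 took 2710 CPM in the lowest, 5467 CPM in the median and 12853 CPM in the highest overwintered ovary. In spring-reared ovaries it took 3507, 5518 and 7150 CPM. The highest value belonged to overwintered ovary 5 and the lowest to overwintered ovary 1, and all 8 spring-reared values lay between these extremes. No other member reached the lowest of these values in any ovary.

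Member 2 had a lowest, median and highest level of 644, 1196 and 1646 CPM in overwintered ovaries and 736, 929 and 1173 CPM in spring-reared ones. Member 3 had 440, 751 and 1211 CPM in overwintered ovaries and 552, 836 and 1028 CPM in spring-reared ones. Member 4 had 605, 847 and 1965 CPM in overwintered ovaries and 463, 695 and 830 CPM in spring-reared ones. For these 3 members the treatments overlapped, and the highest value in each case came from an overwintered ovary.

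Member 5 had 428, 783 and 1226 CPM in overwintered ovaries and 429, 548 and 645 CPM in spring-reared ones. Its overwintered values were above the spring-reared median in 7 of 8 ovaries. Member 6 had 546, 598 and 750 CPM in overwintered ovaries and 405, 471 and 501 CPM in spring-reared ones. It was the only member whose treatments did not overlap.

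Member 7 had 188, 313 and 609 CPM in overwintered ovaries and 279, 376 and 486 CPM in spring-reared ones, so its overwintered values enclosed all its spring-reared ones. Member 8 had 257, 339 and 517 CPM in overwintered ovaries and 250, 315 and 365 CPM in spring-reared ones. Member 9 stayed in a narrow band, with 249, 272 and 295 CPM in overwintered ovaries and 248, 271 and 328 CPM in spring-reared ones. Member 10 had 256, 288 and 343 CPM in overwintered ovaries and 206, 233 and 276 CPM in spring-reared ones, and all 8 overwintered values were above the spring-reared median. The other 24 members had medians over the 16 ovaries from 243 CPM down to 107 CPM. Among them, member 12 dropped furthest, to 51.6 CPM in overwintered ovary 1 against 147 to 285 CPM in the other overwintered ovaries.

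**Figure D1:**
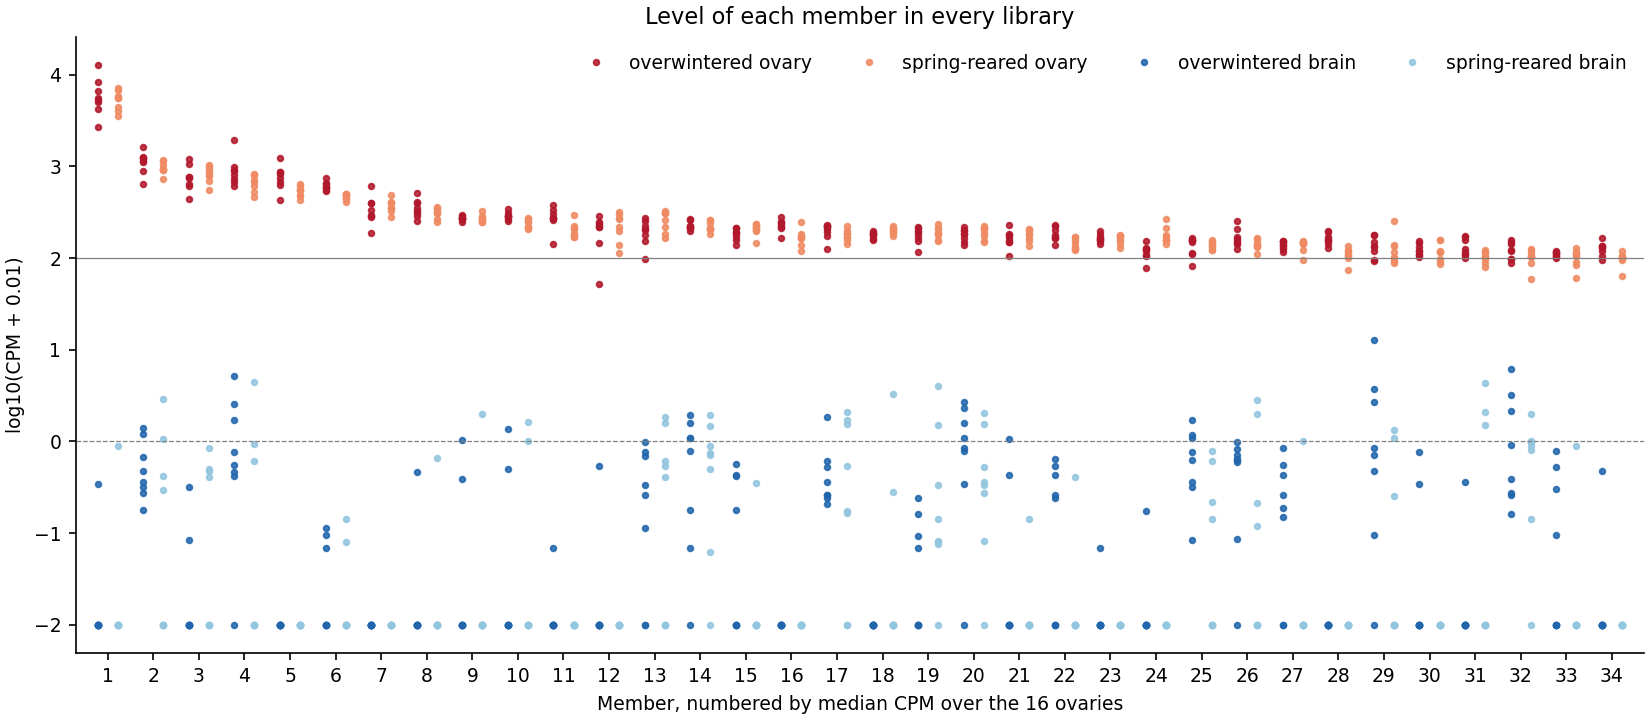
Level of each of the 34 members in all 32 libraries, as log10(CPM + 0.01) on the vertical axis, with members in order of their median over the 16 ovaries on the horizontal axis and 1 point per library. The grey lines mark the limits of the selection at 100 CPM (solid) and 1 CPM (dashed). Points at the bottom are brains with 0 counts, and no ovary value falls below 51.6 CPM.

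Together the 34 members held 1.59% ± 0.384 of the gene counts of an overwintered ovary and 1.39% ± 0.181 of those of a spring-reared ovary (SD, n = 8 each). In overwintered ovaries the share had a lowest value of 1.17%, a median of 1.49% and a highest value of 2.44%, and in spring-reared ovaries 1.13%, 1.39% and 1.68%. The 2 groups overlapped over most of their range, and the highest share, that of overwintered ovary 5, lay well above all the others. Member 1 alone took 0.271 to 1.29% of the counts of overwintered and 0.351 to 0.715% of those of spring-reared ovaries. The other 33 members varied far less in sum, at 0.959% ± 0.0895 in overwintered and 0.859% ± 0.065 in spring-reared ovaries (SD, n = 8 each). Their sum ran from 0.884 to 1.16% in overwintered and from 0.784 to 0.965% in spring-reared ovaries.

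**Figure D2:**
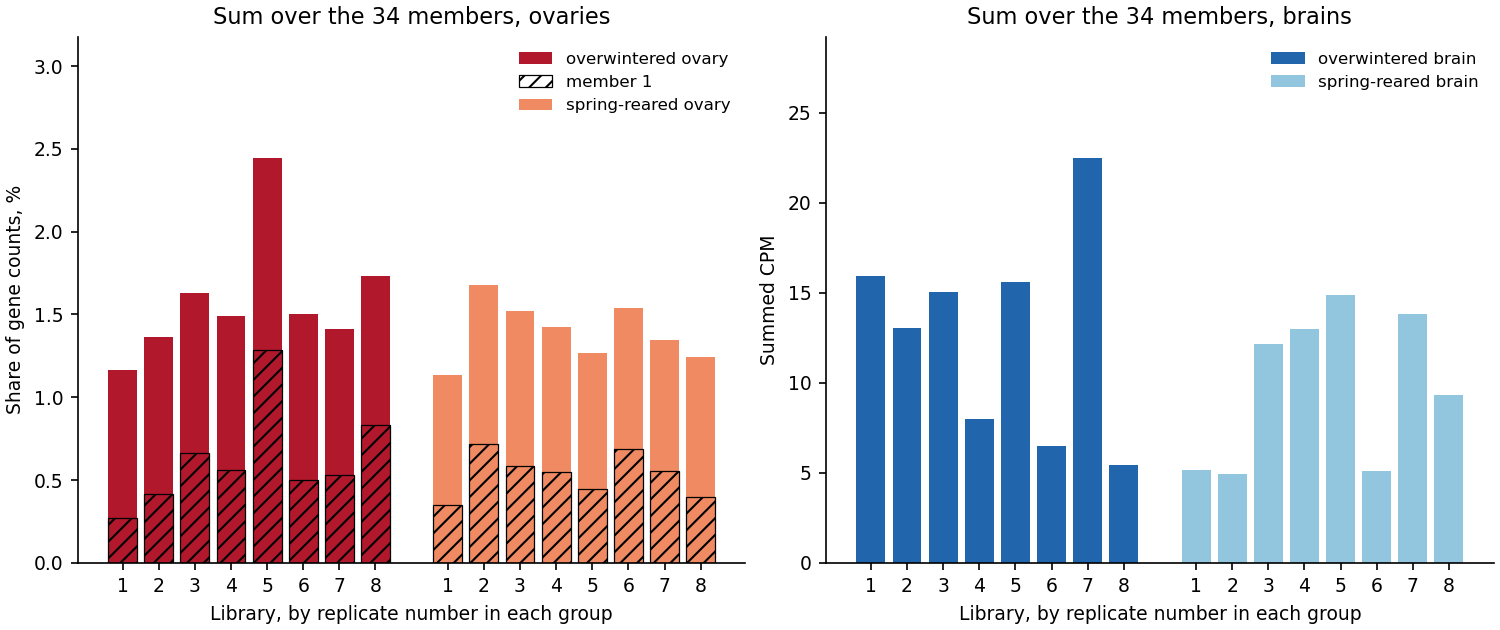
Sum over the 34 members in each library, as percent of gene counts in ovaries (left) and as summed CPM in brains (right), against the replicate number within each group, where a number does not pair the treatments. The hatched part is member 1. Overwintered ovary 5 stands highest at 2.44%, with 1.29% from member 1, and the brains lie between 4.93 and 22.5 CPM.

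Between treatments the members differed little, within the window that the selection allowed. Their log2 fold changes, overwintered over spring-reared, ran from -0.53 to 0.64 with a median of 0.16, and 26 were positive and 8 negative. Without overwintered ovary 5 the median was 0.09, with 21 positive and 13 negative, while the median over all genes tested remained 0.03. The median over all 9361 genes tested was 0.03, as was that over 2477 genes that met the same limits in ovary but had a brain median over 1 CPM. The standard errors of the members' changes ran from 0.08 to 0.30, with a median of 0.13. Fitted over all genes tested with edgeR's quasi-likelihood test, 7 of the 34 members (20.6%) were past an adjusted p of 0.05 on the higher side in overwintered ovaries, where 5.3% of all genes tested were, and 1 (2.94%) was past it on the lower side, where 5.28% were. In the 2477 genes with the same ovary limits, 4.97% were past it on the higher and 4.93% on the lower side. Since the selection used the ovary levels of both treatments, these counts are given as they stand and nothing is read from them.

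The 7 higher members were members 6, 10, 16, 22, 28, 31 and 34. Member 28, SINVBB1_07649, had a lowest, median and highest level of 130, 159 and 196 CPM in overwintered ovaries and 73.4, 112 and 136 CPM in spring-reared ones. All 8 overwintered values were above the spring-reared median, and the groups touched only where the lowest overwintered ovary fell below the highest spring-reared one. Its log2 fold change was 0.62 ± 0.12 (SE). Member 16, SINVBB1_10583, had 168, 229 and 278 CPM in overwintered ovaries and 119, 171 and 247 CPM in spring-reared ones, a log2 fold change of 0.49 ± 0.15 (SE). Here the groups overlapped only through overwintered ovary 1, at 168 CPM, and spring-reared ovary 2, at 247 CPM. The other overwintered ovaries had 213 to 278 CPM and the other spring-reared ovaries 119 to 182 CPM. Of the overwintered values, 7 of 8 were above the spring-reared median. Member 28 was past the threshold under all 24 alternative settings tried in ovary and member 16 under 9, since leaving out any 1 ovary other than overwintered ovaries 1 and 2 and spring-reared ovary 2 ended its call, at log2 fold changes of 0.37 to 0.52.

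Member 6 changed by 0.47 ± 0.12 and member 10 by 0.35 ± 0.09 on the log2 scale (SE), with the values by ovary given above. Members 22, 31 and 34 had log2 fold changes of 0.40, 0.41 and 0.42, and in each of them 7 of 8 overwintered values were above the spring-reared median. Member 31 was not past the threshold without overwintered ovary 3, 5, 7 or 8, without spring-reared ovary 3, 5, 6, 7 or 8, or with the replicate number as a block, at log2 fold changes of 0.35 to 0.41. Member 10 was not past it with that block, at 0.34. The 7 thus included genes from the upper and the lower end of the list and none of the 5 most abundant. The single lower member was member 24, SINVBB1_01486, with 77.8, 122 and 154 CPM in overwintered ovaries and 142, 164 and 270 CPM in spring-reared ones. None of its 8 overwintered values reached the spring-reared median, and its log2 fold change was -0.53 ± 0.16 (SE). This member was not past the threshold when any 1 ovary other than overwintered ovary 5 was left out, or with the replicate number as a block, at log2 fold changes of -0.56 to -0.43, and the count on the lower side was then 0.

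Counted by overlap instead, 1 member, member 6, had all its overwintered values above all its spring-reared ones, where 0.534% of all genes tested had, and 0 members had the reverse, where 0.791% had. With the 3 ovaries that stood apart left out (overwintered ovaries 1 and 5 and spring-reared ovary 6), 9 members were past the threshold on the higher and 1 on the lower side, including all 8 counted with them. Over all genes tested in that refit, 5.85% were past it on the higher and 5.33% on the lower side. Several of the most abundant members had log2 fold changes as large but with wider errors, and were not past the threshold. Member 5 stood at 0.64 ± 0.20, member 4 at 0.53 ± 0.20 and member 11 at 0.52 ± 0.19 (SE). Their adjusted p in edgeR's quasi-likelihood test was 0.0518, 0.103 and 0.0871, so member 5 missed the threshold narrowly. Member 1 stood at 0.37 ± 0.30 (SE), but its ovary medians were nearly equal, with a ratio of 0.991. Only 4 of its 8 overwintered values were above the spring-reared median, and its highest value was that of overwintered ovary 5.

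**Figure D3:**
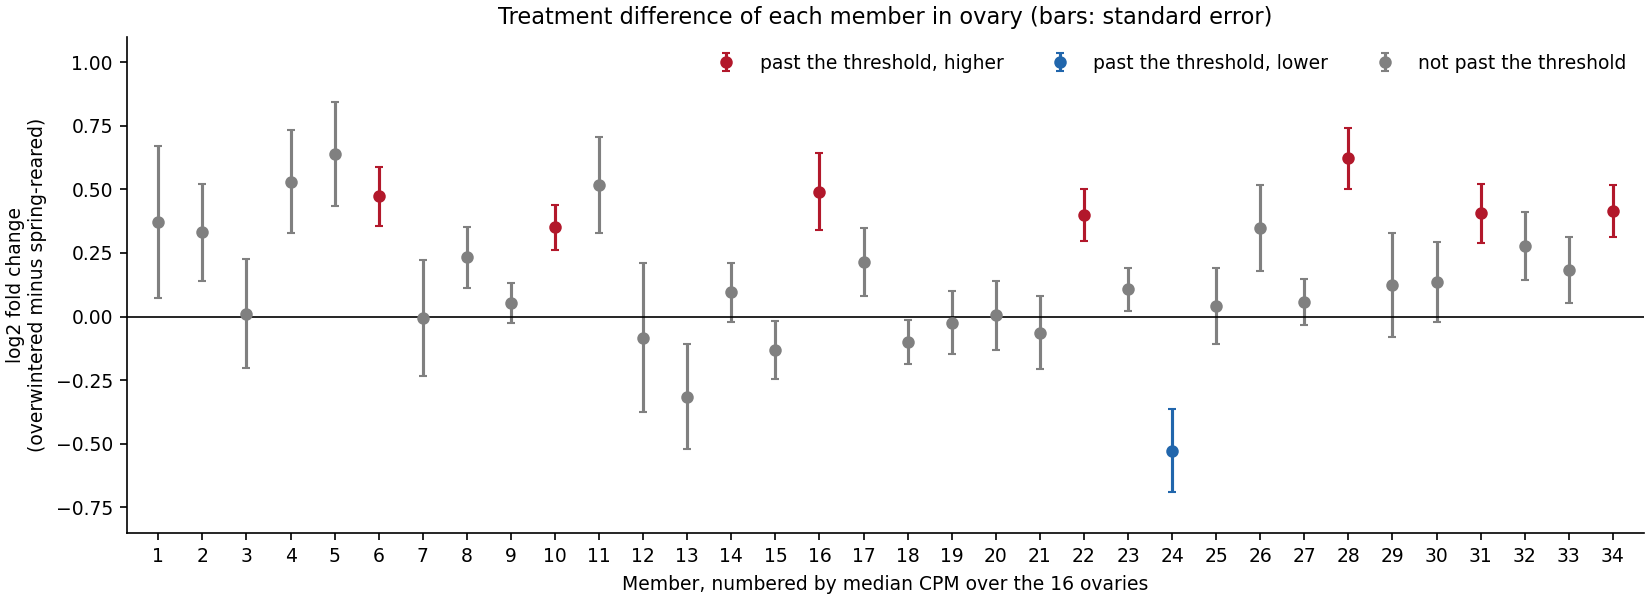
Log2 fold change of each member in ovary, overwintered minus spring-reared, with its standard error, for members in order of their median CPM over the 16 ovaries. Coloured points are past an adjusted p of 0.05 over all 9361 genes tested, 7 on the higher and 1 on the lower side. The points lie between -0.53 and 0.64.

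The spread between gynes of 1 treatment was limited by the selection in overwintered but not in spring-reared ovaries. In spring-reared ovaries the CV of the members had a median of 0.147 and ran from 0.0726 for member 6 to 0.420 for member 29. The median was 0.111 over the 2477 genes with the same ovary limits. A CV under 0.15 was found for 19 of the 34 members (55.9%) and for 78.0% of the 2477 genes. In overwintered ovaries the median CV was 0.187 against 0.130, and 13 members (38.2%) against 62.6% of the other genes had a CV under 0.15. The members were thus less even between gynes than the other abundant ovary genes in both treatments, as a description of these lists without a test.

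Evenness varied from member to member. Member 9 had the lowest CV in overwintered ovaries, 0.0512, and 0.0929 in spring-reared ones. Member 18 was even in both, with 0.0774 and 0.0754, and ran from 156 to 197 CPM in overwintered and from 175 to 221 CPM in spring-reared ovaries. Member 33 had a CV of 0.0642 in overwintered and 0.219 in spring-reared ovaries. Member 1 showed the reverse order, with 0.492 and 0.243, as did member 4 with 0.456 and 0.200 and member 7 with 0.361 and 0.165. Member 12 was uneven in both treatments, with 0.357 and 0.327. Member 29 was uneven in spring-reared ovaries with 253 CPM in ovary 5 and 88.2 to 138 CPM in the other 7.

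**Figure D4:**
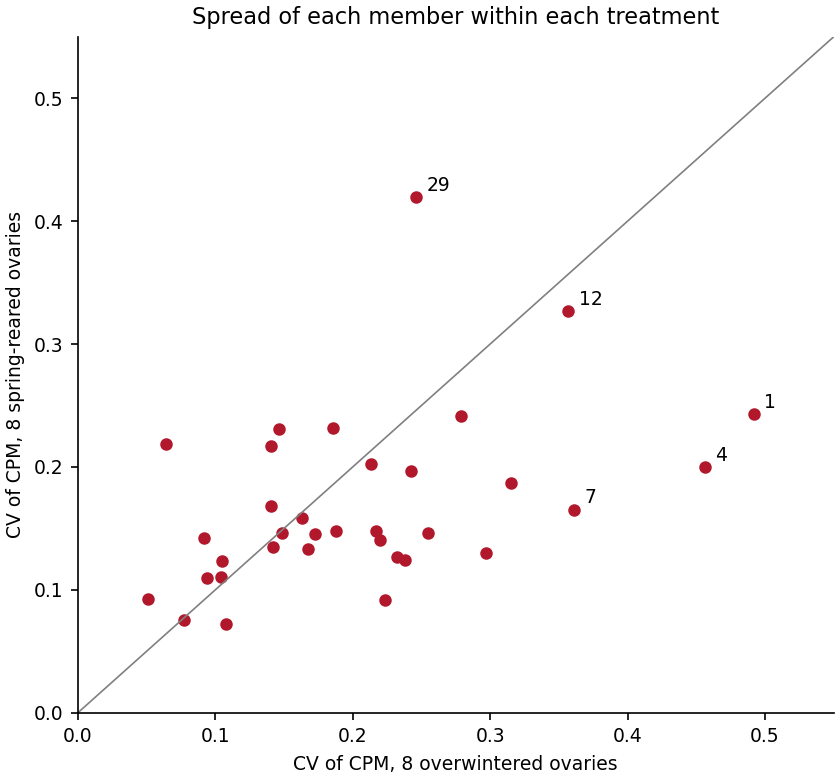
CV of CPM of each member over the 8 overwintered ovaries (horizontal) and the 8 spring-reared ovaries (vertical), 1 point per member, with a line of equal values. Members 1, 4 and 7 lie far to the right of the line and member 29 far above it.

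A few ovaries held the extremes of many members at once. Overwintered ovary 5 was the highest of its group for 13 members (38.2%) and for 10.7% of the 2477 other abundant genes, and the lowest for 3 members (8.82%) and 49.8% of the other genes. Members 1, 2, 3, 5, 6 and 7, that is 6 of the 7 most abundant, were among the 13. Overwintered ovary 1 was the lowest of its group for 14 members (41.2%) and for 15.7% of the other genes. It was also the highest for 5 members (14.7%) and for 21.5% of the other genes. Member 4 had 1965 CPM there, against 605 to 989 CPM in the other overwintered ovaries. Among spring-reared ovaries, ovary 2 was the highest for 16 members (47.1%) and for 19.8% of the other genes, and ovary 7 was the lowest for 10 members (29.4%) and for 4.88%. Spring-reared ovary 1 was the lowest for more members, 11 (32.4%), but also for 33.7% of the other genes. On TMM-adjusted CPM, which scales by the bulk of genes, overwintered ovary 5 was the highest for 24 members (70.6%) and for 49.1% of the other genes. The part of that library's low TMM factor in its high member levels was not tested.

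**Figure D5:**
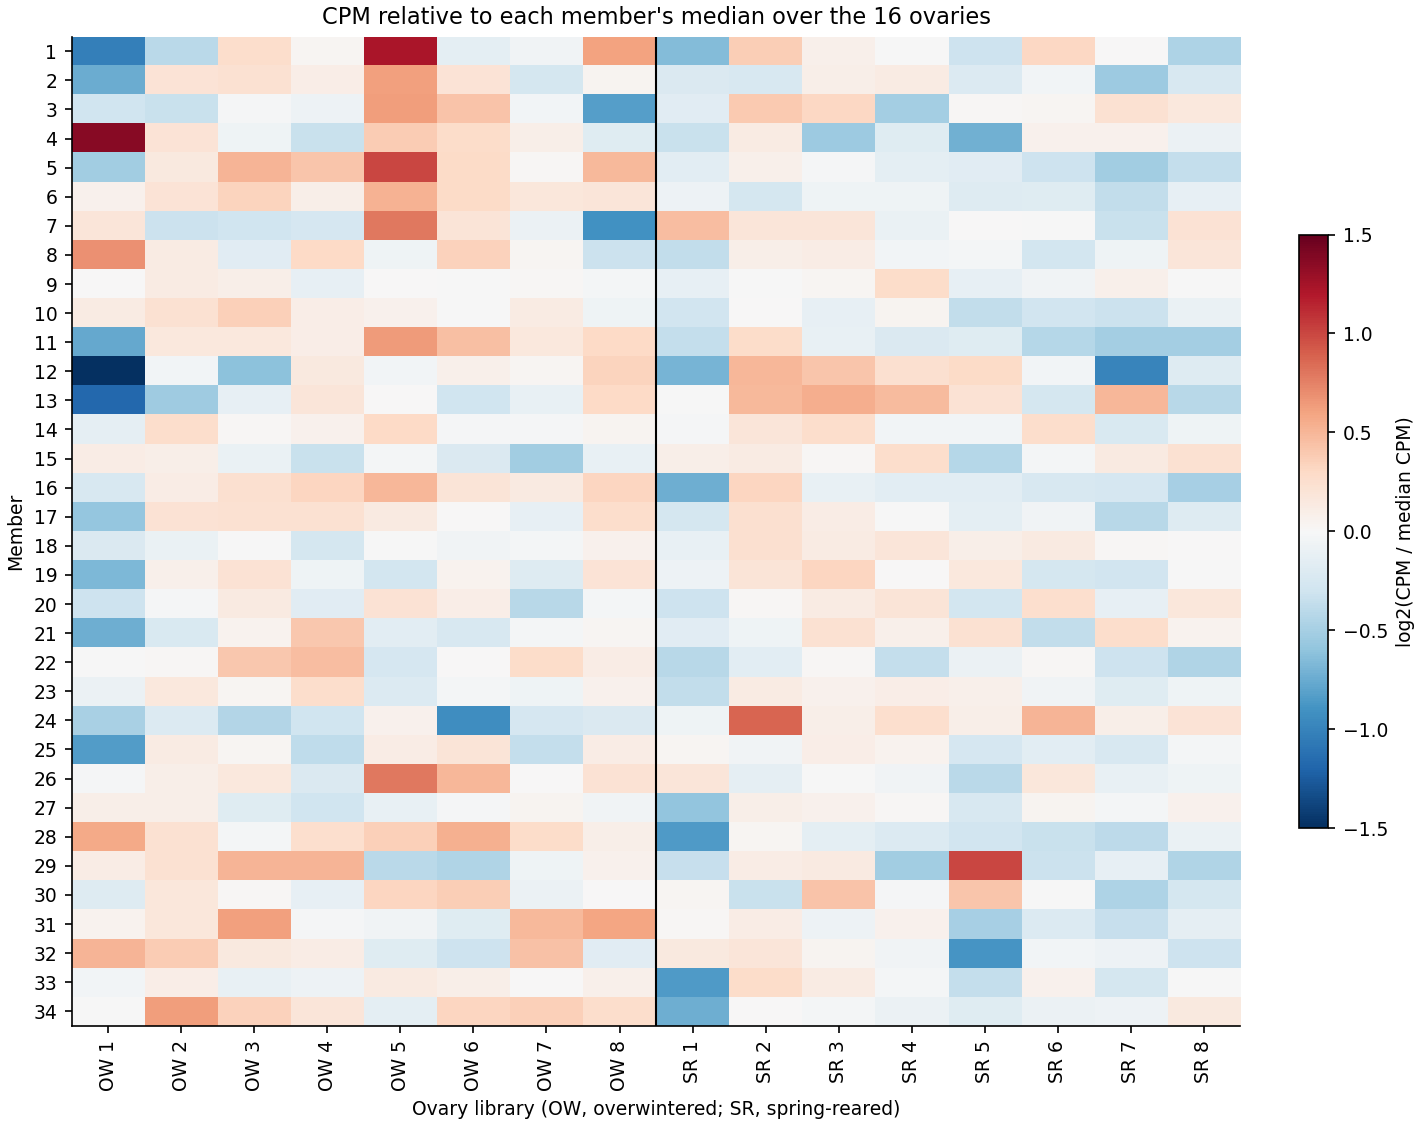
Level of each member (rows) in each of the 16 ovaries (columns, OW overwintered and SR spring-reared, by replicate number) as log2 of CPM over the member's median over all 16. Red is above and blue below the median, with colours ending at 1.5 in either direction. The columns of overwintered ovaries 1 and 5 hold the strongest colours, and members 1, 4 and 12 the largest departures.

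From gyne to gyne, the members' levels were weakly correlated with each other on CPM. Over the 561 pairs of members, the correlation of log2 CPM across the 8 ovaries of a treatment had a median of 0.10 in overwintered and 0.29 in spring-reared ovaries. Over pairs of the 2477 other abundant genes it was 0.17 and 0.10. All members share the same 8 libraries in such a correlation, and the values moved with the scaling. On TMM-adjusted CPM the members' median was 0.52 in overwintered and 0.20 in spring-reared ovaries, and that of the other genes 0.21 and 0.03. Without overwintered ovary 5, the members' median on that scale was 0.30 in overwintered ovaries, and that of the other genes 0.10. These medians are a description over 8 ovaries and carry no test.

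Only 4 of the 561 pairs (0.713%) had a correlation over 0.8 in both treatments, close to the 0.582% of pairs among the other abundant genes. These were members 1 and 16 (0.93 in overwintered and 0.82 in spring-reared ovaries), members 5 and 11 (0.87 and 0.90), members 8 and 28 (0.82 and 0.86) and members 12 and 17 (0.82 and 0.90). Members 2 and 6 have identifiers whose numbers differ by 1, and their levels had correlations of 0.80 in overwintered and 0.82 in spring-reared ovaries. The numbers of members 13 and 34 differ by 2, and their correlations were 0.04 in both treatments. Whether these numbers follow the order of genes on a chromosome is not known here, and reads of near-identical or overlapping genes cannot be separated in these counts.

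In brains the members were traces. Of 34 members in 16 brains, 64.2% of all values were 0, with 57.0% in overwintered and 71.3% in spring-reared brains. Members 5, 7, 16 and 28 had 0 counts in every brain. Another 11 members had counts in 1 to 3 brains, 8 in 4 to 8 brains and 11 in 9 to 15 brains. The widest was member 32, with counts in 15 brains, at a median of 0.642 CPM in overwintered brains and 0.926 CPM in spring-reared ones.

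Summed over all members, a brain held 12.7 ± 5.78 CPM in overwintered gynes and 9.79 ± 4.24 CPM in spring-reared ones (SD, n = 8 each). The lowest, median and highest sums were 5.41, 14.0 and 22.5 CPM in overwintered brains and 4.93, 10.8 and 14.9 CPM in spring-reared ones, so the groups overlapped. As a percentage of the sum in the ovary of the same gyne, the brain sum was 0.0293 to 0.159%. An overwintered brain had counts of 9 to 18 members and a spring-reared brain of 6 to 16, with means of 14.6 and 9.75. Over all 16314 genes, overwintered brains likewise had counts of more genes, 10675 to 11333 against 9854 to 10569. The part of this general difference in the members' counts was not tested.

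Traces often came from a lone library. For 14 members, most of the counts over all brains lay in 1 brain. These include members 11 and 23, with 1 brain count each, for which it could not be otherwise, and member 24, with 2. Member 29 had the highest brain value, 12.6 CPM (179 counts) in overwintered brain 7, where the other overwintered brains had 0 to 3.72 CPM and the spring-reared brains 0 to 1.34 CPM. Member 32 reached 6.14 CPM in overwintered brain 1 and member 4 reached 5.10 CPM in overwintered brain 5. These 3 were the only members over 5 CPM in any brain, and 17 members went over 1 CPM in at least 1 brain.

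With counts pooled over the 16 libraries of each organ, 27 members with more than 3 brain counts had ovary levels from 94.2 times (member 29) to 80407 times (member 1) their brain level, with a median of 967 times. Exact Poisson intervals (95%) ran from 84.5 to 105 for member 29 and from 50220 to 138029 for member 1. Both ends leaned on 1 brain. Without spring-reared brain 5, which held 13 of its 17 brain counts, member 1 stood at 319720 times, and without overwintered brain 7, which held 179 of 326, member 29 stood at 196 times. When each member was taken without the brain that held most of its counts, 25 of the 27 still had more than 3 counts, with ratios of 117 (member 32) to 319720 and a median of 1071, and 11 of them had moved by over 1.5 times. The largest move was that of member 18, from 967 to 10286 times without spring-reared brain 3. Members 12 and 34 had all their brain counts in 1 brain.

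For the 4 members without brain counts, a floor of 3 counts over the 16 brains put the ovary level at least 10367-fold higher (member 28) to at least 51638-fold higher (member 5). Member 24 had 2 brain counts, for a ratio of 16930 with a 95% exact Poisson interval of 4687 to 139799. Members 11 and 23 had 1 brain count each, for ratios of 56362 (10116 to 2226160) and 37564 (6742 to 1483700). All these intervals and floors cover counting error only, since reads amplified without molecular identifiers are not independent molecules.

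Only 3 members had enough brain counts to be tested for treatment in brain with edgeR's quasi-likelihood test, and 0 of them passed an adjusted p of 0.05, where 5.4% of the 9570 genes tested in brain did. Member 14 had a log2 fold change, overwintered over spring-reared, of -0.04 ± 0.86, member 20 of 0.74 ± 0.84 and member 32 of 0.85 ± 0.83 (SE). Errors of this size leave changes of either direction within reach. By mean CPM in brain, 19 members were higher and 11 lower in overwintered gynes, and 4 had no counts. The same split over all genes was not taken, and overwintered brains had counts of more genes in general, so nothing is read from it.

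The limits on level had genes close to either side, and those on ratio and CV did not have a member near them. The member nearest to the ovary limit was member 34, with a lower median of 100.7 CPM, and the nearest gene outside had 97.2 CPM. The member nearest to the brain limit was member 20, with a higher median of 0.960 CPM, and the nearest gene outside had 1.08 CPM. The ratio of ovary medians ran from 0.723 (member 13) to 1.43 (member 5) among members, while the nearest genes that met both level limits but fell outside stood at 0.439 and 5.32. The highest CV was 0.492 (member 1), and the nearest of those genes outside had 0.886. That gene was the one with the ratio of 5.32, so it missed both limits, and the nearest gene to miss the CV limit alone had 1.45.

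Of 2526 genes with ovary medians of at least 100 CPM in both treatments, 38 had brain medians of at most 1 CPM in both, and the limits on ratio and CV took out 4 of these. In the reverse direction, 59 genes met the mirrored limits, with brain medians of at least 100 CPM and ovary medians of at most 1 CPM. The authors' deposited table for ovary, of 8031 genes, lists 34 of the 34 members, and their table for brain, of 7655 genes, lists 0 of them. These lists come from the same libraries, and the selection fixed a high ovary and a low brain level. The split was therefore nearly set in advance and supports nothing.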

How the data were processed

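The authors deposited whole-number gene counts for 32 libraries, and the submitters' processing notes name Trim Galore 0.6.5, STAR 2.7.3a and edgeR. The genome build is not given in the sources used here, nor is the annotation. Smart-seq2 does not mark strand. The 4 lines that name no gene stayed out of library sizes and tests. The authors also deposited CPM tables for brain and ovary, used here only for their lists of genes. CPM in the text is a deposited count over the sum of gene counts, unless TMM-adjusted. Replicates are separate gynes, as the labels give 1 gyne per colony.

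Treatments were compared within each organ on the whole table in R 4.3.3 with edgeR 4.0.16 (TMM, filterByExpr by group, robust quasi-likelihood test, Benjamini-Hochberg adjustment, threshold 0.05). A standard error is the size of the log2 fold change over the square root of F. The fit was tested on simulated data. Correlations used log2(CPM + 1), and principal components a prior count of 2. Alternatives included DESeq2 1.42.0 and limma voom 3.58.1. Spread, correlation and highest ovary on TMM-adjusted CPM, and ratios without the brain with most counts of a member, were added after seeing the data.

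The members, lists and tests were chosen with earlier results of these data known. By rule, the 10 most abundant members, those at the limits of the selection and the one with the highest brain value are described, and up to 2 identifiers per direction are printed. Other members were singled out after their values were seen. Lists of oogenesis genes and cell type markers could not be applied to unnamed identifiers.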

Additional observations from a re-analysis of the deposited data

Results flagged for a closer look

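Of 38 groups of 8 values examined, 5 held a value far from the other 7 by the size of its gap relative to the whole range. Chance gives about 1 in 20 groups, but that rate cannot be held against this count, since member 29 was examined for having the highest brain value and all members were selected on these libraries. The sum over members was 24437 CPM in overwintered ovary 5, against 11671 to 17347 CPM in the other overwintered ovaries. Member 4 had 1965 CPM in overwintered ovary 1, against 605 to 989 CPM. Member 9 had 328 CPM in spring-reared ovary 4, against 248 to 286 CPM. Member 34 had 63.9 CPM in spring-reared ovary 1, against 94.3 to 118 CPM. Member 29 had 12.6 CPM in overwintered brain 7, against 0 to 3.72 CPM.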

How the results depend on the processing

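The limits set the number of members: an ovary median of at least 50 CPM gave 70 genes and one of at least 200 CPM gave 13, while the other limits tried, TMM-adjusted CPM, means in place of medians and leaving out libraries gave 27 to 43. Members higher in overwintered ovaries numbered 5 to 10 under all alternatives but a threshold of 0.01, which left 1. Over all genes tested, the share on the higher side moved too, from 2.78 to 7.88%, and was 1.82% at 0.01. The only member on the lower side, member 24, was not past the threshold with RLE size factors, no filter or a threshold of 0.01 (0 members lower in each), and leaving out 1 ovary at a time gave 0 to 1, with 1 only without overwintered ovary 5. Under these settings, 1.84 to 6.32% of all genes tested were past it on the lower side. With the replicate number as a block, 5 members were higher and 0 lower, where 2.78% of all genes tested were higher and 2.23% lower. The labels give same-numbered ovaries of the 2 treatments to different gynes, so the numbers do not pair the samples and no labelled pairing stands behind the block. The deviations of same-numbered ovaries had correlations of -0.228 to 0.201, and 1 of 8 correlated best with its own number. Of 24 alternatives, member 28 kept its call in all 24, member 16 lost it in 15, member 24 in 19, member 31 in 11, member 10 in 2, and members 6, 22 and 34 in 1 each. With a filter of 1 CPM in 8 libraries, 0 members could be tested in brain. On CPM scaled by TMM over all libraries, the members' median pairwise correlation in overwintered ovaries was 0.59 against 0.10, and 24 members were highest in overwintered ovary 5 against 13, a count that was also 24 with TMM over ovaries alone. The cause of these changes was not tested. The order of the medians thus turned: on CPM the members were less correlated in overwintered than in spring-reared ovaries (0.10 and 0.29) and on TMM-adjusted CPM of ovaries alone more (0.52 and 0.20). The median log2 fold change was 0.09 to 0.21 when 1 ovary at a time was left out, lowest without overwintered ovary 5. Over 23 refits, 9 of the 34 members changed sign at least once, all of them with log2 fold changes of at most 0.0948 in size, and the 8 past the threshold did not. The sum of stranded counts and the strand comparison were not run, since 1 count column was used here.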
